A study of Homo sapiens with 43 samples.

Results

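Zinc handling in HMC3 cells was followed through 7 genes out of the 20052 in the deposited count table. These were the metallothioneins MT2A, MT1E and MT1X, the zinc-sensing transcription factor MTF1, the zinc exporter SLC30A1, and the zinc importers SLC39A10 and SLC39A14. The genes were taken by name for their known roles in zinc biology, with earlier results of these data known. All 7 passed the filter on low counts that left 16816 genes for testing.

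The 43 libraries came from flasks of HMC3, an established human cell line sold as microglial, in 17 groups, and every group was the same line, so replicates are flasks and not donors. Flasks received dexamethasone at 1 or 0.01 µM, hydrocortisone at 10 or 0.01 µM, ethanol as the vehicle of each of these 4 treatments, or untreated medium. Cells were collected on day 3, after 3 days of treatment, or on day 6, when cells reseeded from the treated flasks had spent the last 3 days in normal growth medium without hormone (washout). Each hormone group had 3 libraries on each day, each of the 4 vehicle groups had 3 on day 3 and 1 on day 6, and untreated medium had 3 on day 3 only. Dexamethasone is a synthetic glucocorticoid, and hydrocortisone is the drug name of cortisol.

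Total counts ran from 7638840 to 24426643 per library. Ribosomal RNA genes took 9.9% to 94.86% of the counts (median 29.26%) and over 75% in 7 libraries, so the non-ribosomal counts ran from 1083395 to 17542023. Among the microglial markers, CSF1R, TREM2 and CD68 had medians of 0.273, 0.248 and 0.112 counts per 1e6 non-ribosomal counts, while COL1A1, a collagen chain typical of fibroblasts, stood at 1678. These 3 microglial markers were thus at or near 0, and HMC3 is used below only as the name of the line. TSC22D3, a textbook glucocorticoid target, served as the control of hormone action. Its log2 fold change on day 3 was 3.99 with 1 µM dexamethasone, 3.05 with 0.01 µM dexamethasone, 3.26 with 10 µM hydrocortisone and 0.11 with 0.01 µM hydrocortisone.

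Metallothioneins are small cysteine-rich proteins that hold zinc and copper ions. MTF1 senses free zinc through its zinc fingers and then binds metal response elements in front of the metallothionein genes and of SLC30A1, whose product pumps zinc out of the cell. The SLC39 family works in the other direction: SLC39A10 carries zinc into the cell across the plasma membrane, and SLC39A14 carries zinc, iron and manganese. MT2A is also a classical glucocorticoid target, with a receptor binding site in its upstream region.

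MT2A (ENSG00000125148, chr16:56608199-56609497, plus strand), MT1E (ENSG00000169715, chr16:56625475-56627112, plus strand) and MT1X (ENSG00000187193, chr16:56682424-56684196, plus strand) lie in the same cluster on chromosome 16 (GRCh38, GENCODE v29). The 250 bases before the RefSeq transcript start (GRCh38.p14) were read for 5 members, MT2A, MT1X, MTF1, SLC30A1 and SLC39A10. MT1E and SLC39A14 were not read. They were searched on both strands for the metal response element core, written TGCACNC or TGCGCNC, and for the glucocorticoid response element, written AGAACA, 3 bases of any kind and TGTTCT, or its single arm AGAACA. The sequences shown are those of the metallothioneins that rose with hormone, and the capitals mark the metal response element cores. The MT2A window lies within the first exon of a longer GENCODE transcript, so only 3 of its sites are shown, each with 10 bases on either side, at chr16:56608406-56608432, chr16:56608486-56608512 and chr16:56608520-56608546. The MT1X stretch is chr16:56682220-56682423, the part of its window that precedes every annotated exon. All are on the plus strand and read 5′ to 3′, and the MT2A sites are named by the distance of their first base from the start.
MT2A 168 bases before the start: cccgcggcccGTGTGCAgagccgggtg
MT2A 88 bases before the start: agcgcggggcGTGTGCAggcagcgccc
MT2A 54 bases before the start: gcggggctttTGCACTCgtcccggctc
MT1X upstream: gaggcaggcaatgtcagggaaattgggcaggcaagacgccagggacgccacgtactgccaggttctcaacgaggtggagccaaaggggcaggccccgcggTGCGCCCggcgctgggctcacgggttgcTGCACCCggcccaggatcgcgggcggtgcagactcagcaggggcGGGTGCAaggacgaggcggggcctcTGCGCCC

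The MT2A window held 7 cores (5 TGCACNC and 2 TGCGCNC), and the MT1X window held 4 (2 of each). Of 35116 RefSeq windows of the same length 24.83% held at least 1 core and 0.37% held 4 or more. SLC30A1 held 1 core, 49 to 43 bases before its start, and neither MTF1 nor SLC39A10 held any. The complete glucocorticoid response element as written was in none of the windows of these genes and in 1 of all 35116, and the single arm AGAACA, present in 12.39% of all windows, was in none of them either. A match is only a match of letters, and its absence says only that these letters are not in this window.

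Metallothioneins are near copies of each other, so reads can be shared. At the read length of 76 bases, 0% of the windows along the annotated MT2A transcripts, 1.25% of those of MT1E and 14.23% of those of MT1X also occur in another gene. For MT1X these were MT1G, the pseudogene MT1XP1 and AC026461.1, a transcript that overlaps MT1X on the same strand. MT1X values are therefore less certain than those of MT2A and MT1E. The annotated exons of all transcripts together cover the whole span of MT2A (1299 bases) and of MT1X (1773 bases). The windows thus include sequence that other transcripts splice out, and the share within the spliced mRNA, which can be larger, was not computed.

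After 3 days of 1 µM dexamethasone the 3 metallothioneins rose about as much as each other, the 2 zinc importers fell slightly, and MTF1 and SLC30A1 did not pass the test. Levels are CPM, the counts per 1e6 of the library size after scaling by the trimmed mean of M values. A gene is called where edgeR's quasi-likelihood test over all 43 libraries gives a Benjamini-Hochberg adjusted p under 0.05, and differences are log2 fold changes with their standard error (SE). With 1 µM dexamethasone 5 of the 7 genes were called, against 22.6% of all genes tested. Of these 3 were higher and 2 lower, where 10.3% and 12.3% of all genes were. The median log2 fold change of the 7 was 0.81, and that of all genes was 0.016.

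MT2A had 285, 271 and 283 CPM in the 3 dexamethasone 1 µM libraries and 143, 153 and 155 CPM in their vehicle. The groups did not overlap, which held for 38.32% of all genes tested, and the log2 fold change was 0.90 (SE 0.06, adjusted p = 3.3e-15), a 1.86-fold higher level. MT2A was also among the steadiest of the 11670 genes whose mean log2 CPM reached 1. Its spread within groups, 0.07 on the log2 scale and not adjusted for level, was larger than that of only 1.97% of them. MT1E had 93.0, 92.5 and 106 CPM against 42.6, 48.4 and 48.1 CPM, again without overlap (log2 fold change 1.07, SE 0.12, adjusted p = 2.0e-08). MT1X was far lower, with 8.543, 8.284 and 8.004 CPM against 3.42, 4.09 and 4.37 CPM (1.06, SE 0.18, adjusted p = 1.4e-05).

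At 0.01 µM dexamethasone MT2A and MT1E were called, 2 of the 7 genes and both higher, against 14% of all genes (6.15% higher and 7.84% lower). MT2A stood at 229, 228 and 230 CPM against 144, 140 and 149 CPM in its vehicle (log2 fold change 0.66, SE 0.06, adjusted p = 5.1e-11). MT1E stood at 77.9, 81.5 and 82.4 CPM against 42.2, 42.1 and 52.2 CPM (0.82, SE 0.12, adjusted p = 5.7e-06). For both genes every hormone library lay above every vehicle library; 23.48% of all genes tested had no overlap in this comparison, in either direction. MT1X had 6.17, 6.04 and 5.40 CPM against 3.38, 4.23 and 5.48 CPM, and 1 vehicle library exceeded 1 hormone library (0.43, SE 0.18, adjusted p = 0.118). Without that vehicle library, replicate 3, the MT1X value was 0.63 with an adjusted p of 0.0318.

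With 10 µM hydrocortisone all 3 metallothioneins were called higher and SLC39A14 lower, 4 of the 7 genes, against 13.1% of all genes (5.58% higher and 7.5% lower). MT2A had 252, 242 and 235 CPM against 171, 162 and 144 CPM (log2 fold change 0.61, SE 0.06, adjusted p = 3.6e-10). MT1E had 105, 97.5 and 103 CPM against 55.4, 66.0 and 53.9 CPM (0.80, SE 0.12, adjusted p = 9.0e-06). MT1X had 9.28, 9.05 and 8.31 CPM against 6.25, 5.31 and 4.46 CPM (0.74, SE 0.18, adjusted p = 0.00339). The hormone and vehicle libraries did not overlap for any of these 3 genes, as was the case for 28.95% of all genes tested.

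With 0.01 µM hydrocortisone none of the 7 genes was called, and 0% of all genes were. At an unadjusted p under 0.05 there were 398 genes, and DESeq2 called 1. MT2A had 158, 166 and 173 CPM against 151, 146 and 164 CPM, overlapping ranges with a difference of 0.11 on the log2 scale (95% confidence interval -0.01 to 0.24). For MT1E the difference was 0.06 (-0.19 to 0.30) and for MT1X 0.13 (-0.23 to 0.50). The importers differed by -0.14 (SLC39A10, -0.33 to 0.06) and 0.06 (SLC39A14, -0.08 to 0.19), MTF1 by -0.09 (-0.39 to 0.20) and SLC30A1 by -0.10 (-0.87 to 0.68).

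**Figure D1:**
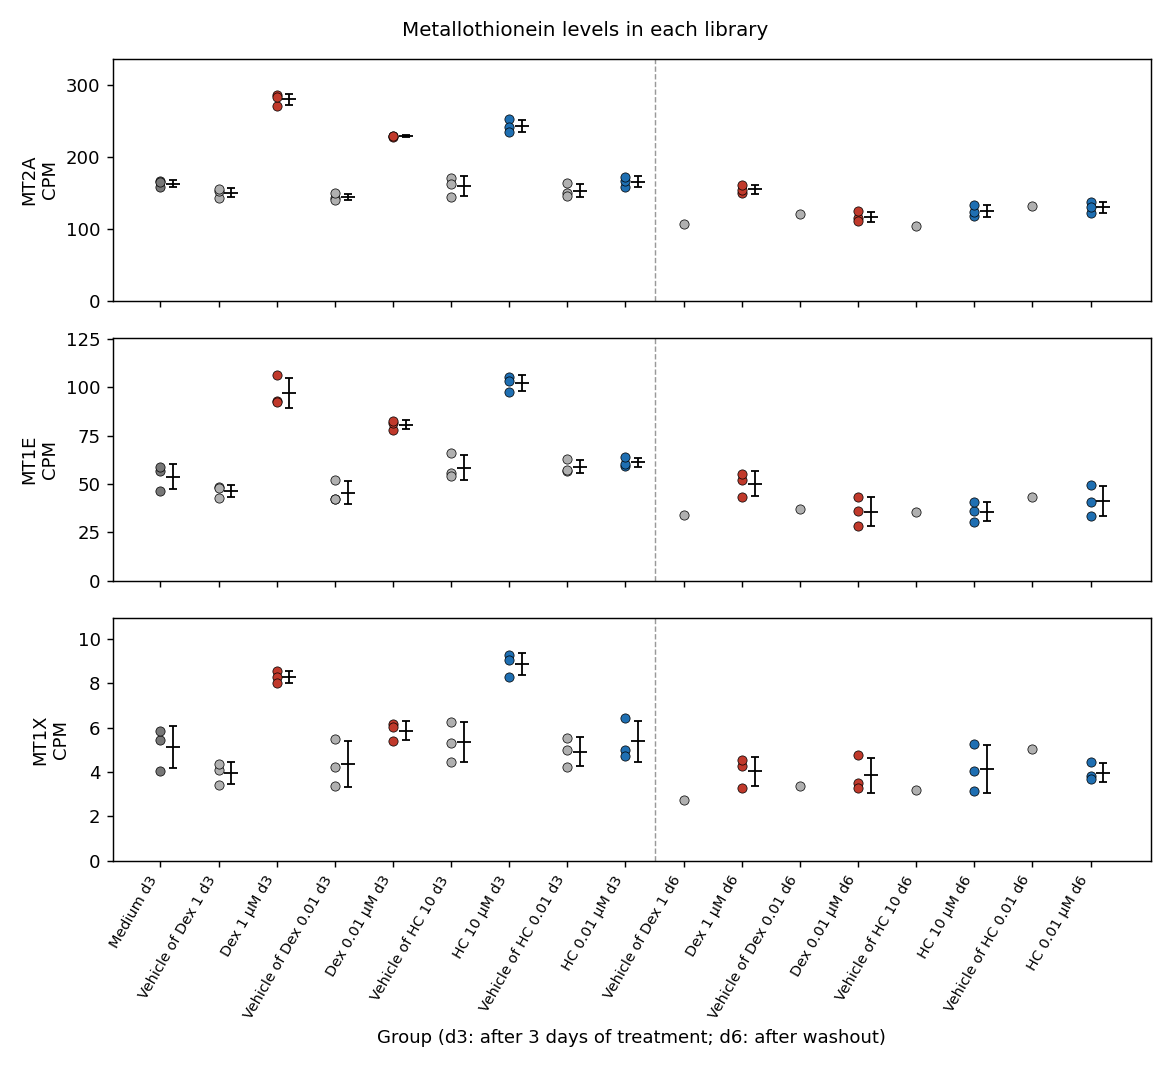
Levels of MT2A, MT1E and MT1X in CPM (vertical axes, starting at 0) in each library by group; grey points are vehicle or medium, red dexamethasone (Dex), blue hydrocortisone (HC), the bar beside each group of 3 is the mean ± SD, and the dashed line separates day 3 from day 6. MT2A reached 271 to 285 CPM in the dexamethasone 1 µM libraries of day 3, and its vehicles of that day lay between 140.3 and 171 CPM.

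The levels ordered the groups in a similar way for the 3 genes. For MT2A the dexamethasone 1 µM libraries of day 3 were highest (279.9 ± 7.56 CPM, SD, n = 3), followed by hydrocortisone 10 µM (243.0 ± 8.63) and dexamethasone 0.01 µM (228.8 ± 1.14), with no overlap between neighbours. Next came hydrocortisone 0.01 µM of day 3 (165.7 ± 7.24) and untreated medium (163.0 ± 4.25), and then the 4 vehicle groups of day 3 and the dexamethasone 1 µM group of day 6, each overlapping its neighbours in the order. The vehicles of the dexamethasone treatments (140.3 to 154.8 CPM) lay wholly below medium (158.2 to 166.1 CPM). The remaining day 6 groups were lowest, down to a single vehicle library at 103.9 CPM. For MT1E and MT1X hydrocortisone 10 µM and dexamethasone 1 µM of day 3 came first and overlapped each other (MT1E 102.1 ± 4.03 and 97.2 ± 7.73 CPM, MT1X 8.88 ± 0.51 and 8.28 ± 0.27 CPM). Divided by exon length, the median over all libraries was 118.0 CPM per kilobase for MT2A, 49.7 for MT1E and 2.67 for MT1X, so MT2A was the most abundant metallothionein measured. On the same scale SLC39A14 had 16.98, SLC39A10 4.99, SLC30A1 1.85 and MTF1 0.99 CPM per kilobase, each less than the MT1E level. Exon length here joins the exons of all annotated transcripts, 1299 bases for MT2A, 1052 for MT1E and 1773 for MT1X. For MT2A and MT1X it equals the whole gene span, so these values are not levels per kilobase of spliced mRNA.

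MT1F, the only other metallothionein of the 11 listed that was in the table, had 1.69, 2.24 and 3.07 CPM with 1 µM dexamethasone against 1.95, 1.54 and 1.33 CPM in vehicle (log2 fold change 0.54, adjusted p = 0.229), and it was not called in any hormone comparison. Of the 4 tested metallothioneins 3, 2, 3 and 0 were called higher with 1 µM dexamethasone, 0.01 µM dexamethasone, 10 µM hydrocortisone and 0.01 µM hydrocortisone on day 3, where 10.3%, 6.15%, 5.58% and 0% of all genes were. Their median log2 fold changes were 0.98, 0.55, 0.68 and 0.12, where the medians of all genes lay between -0.00217 and 0.016. Of 5 metallothionein pseudogenes, listed after their values were seen, 1, 1, 2 and 0 were called higher in these comparisons. MT1L had log2 fold changes of 0.65, 0.66 and 0.58 in the first 3, all called, and of -0.03 in the last. MT2P1 had 0.515 (adjusted p = 0.225), 0.52 (adjusted p = 0.278), 0.88 (adjusted p = 0.0467) and 0.26. None of the 76-base windows of MT1L occurs in another annotated transcript.

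MTF1 (ENSG00000188786, chr1:37809567-37859620, minus strand) was not called in any of the 18 comparisons. Its level stayed between 6.86 and 11.8 CPM across all 43 libraries, with a median of 7.96 CPM. With 1 µM dexamethasone it had 7.12, 7.96 and 9.98 CPM against 7.57, 7.72 and 8.69 CPM in vehicle, a difference of 0.06 on the log2 scale (95% confidence interval -0.23 to 0.36). With 0.01 µM dexamethasone the difference was 0.15 (-0.15 to 0.45), and with 10 µM hydrocortisone it was -0.19 (-0.48 to 0.11). The highest level, 11.8 CPM, rested on 24 reads in the dexamethasone 0.01 µM library of day 3 in which ribosomal RNA genes took 94.9% of the counts. The upper bound with 1 µM dexamethasone lay below the lower bounds of the 3 metallothioneins, which were 0.77 for MT2A, 0.82 for MT1E and 0.70 for MT1X.

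SLC30A1 (ENSG00000170385, chr1:211571568-211578742, minus strand) was not called in any comparison either, and its flasks varied widely. Its spread within groups was 0.48 on the log2 scale, again not adjusted for level. This was larger than that of 99.11% of the 11670 genes whose mean log2 CPM reached 1. With 1 µM dexamethasone it had 9.70, 18.8 and 18.5 CPM against 6.76, 6.93 and 13.1 CPM, with 1 library of each group within the other's range (log2 fold change 0.81, SE 0.38, adjusted p = 0.131). Without vehicle replicate 4, the library at 13.1 CPM, the value was 1.19 with an adjusted p of 0.0462. With 10 µM hydrocortisone it had 12.8, 13.2 and 13.9 CPM against 12.2, 11.4 and 10.8 CPM, ranges that did not overlap but differed by only 0.21 (95% confidence interval -0.56 to 0.98). The vehicle of 0.01 µM dexamethasone alone covered 7.60, 6.10 and 17.6 CPM, and the 95% confidence interval with 1 µM dexamethasone ran from 0.03 to 1.59.

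SLC39A10 (ENSG00000196950, chr2:195575977-195737702, plus strand) fell with 1 µM dexamethasone. It had 31.1, 27.1 and 28.5 CPM against 38.1, 35.3 and 37.4 CPM, without overlap. The log2 fold change was -0.35 (SE 0.10, adjusted p = 0.00523). Against untreated medium, at 38.4, 29.7 and 33.8 CPM, the difference was -0.24 with an adjusted p of 0.0759. With 0.01 µM dexamethasone it had 32.97, 34.32 and 26.0003 CPM against 37.7, 36.3 and 33.1 CPM (-0.20, adjusted p = 0.189), and the lowest library was the one with 94.9% ribosomal counts. With 10 µM hydrocortisone it had 26.93, 25.96 and 27.30 CPM against 28.3, 31.6 and 27.0 CPM (-0.12, adjusted p = 0.499). Its call there depended on the reference: the difference was -0.32 (adjusted p = 0.00164) against all 4 vehicle groups of day 3 and -0.35 (adjusted p = 0.00801) against untreated medium.

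SLC39A14 (ENSG00000104635, chromosome 8, 22367249 to 22434129, plus strand) fell with both high doses. It had 92.1, 101 and 99.3 CPM with 1 µM dexamethasone against 106, 125 and 120.3 CPM in vehicle, without overlap, and fell by 0.26 (SE 0.07, adjusted p = 0.00232). With 10 µM hydrocortisone it had 95.9, 102 and 102 CPM against 115, 119 and 113 CPM, also without overlap, and fell by 0.21 (SE 0.07, adjusted p = 0.0267). This second call is the less certain of the pair, because it was lost when any of 5 of the 6 libraries was left out (adjusted p of 0.0502 to 0.109). With 0.01 µM dexamethasone the value was -0.14 (adjusted p = 0.181), which became -0.17 (adjusted p = 0.0182) against all 4 vehicle groups of day 3 and -0.20 (adjusted p = 0.0308) against medium.

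The level of SLC39A14 moved with the ribosomal share of the library. Over the deviations of 39 libraries from the means of their 13 groups, Pearson's r was -0.66 and Spearman's rho -0.67 (within-group permutation p of 4e-05 for each, 0.00028 after Benjamini-Hochberg adjustment over the 7 genes), and r was -0.65 without the 2 libraries farthest out. The other 6 genes had r between -0.37 and 0.43 with adjusted p of 0.229 or more. Ribosomal genes took 67.9%, 23.2% and 76.1% of the counts in the dexamethasone 1 µM libraries and 45.7%, 13.9% and 41.2% in their vehicle, but 37.3%, 16.6% and 20.7% with 10 µM hydrocortisone against 91.4%, 39.3% and 28.6%. Without the libraries over 75% the SLC39A14 values were -0.29 (adjusted p = 0.00343) and -0.22 (adjusted p = 0.0369).

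**Figure D2:**
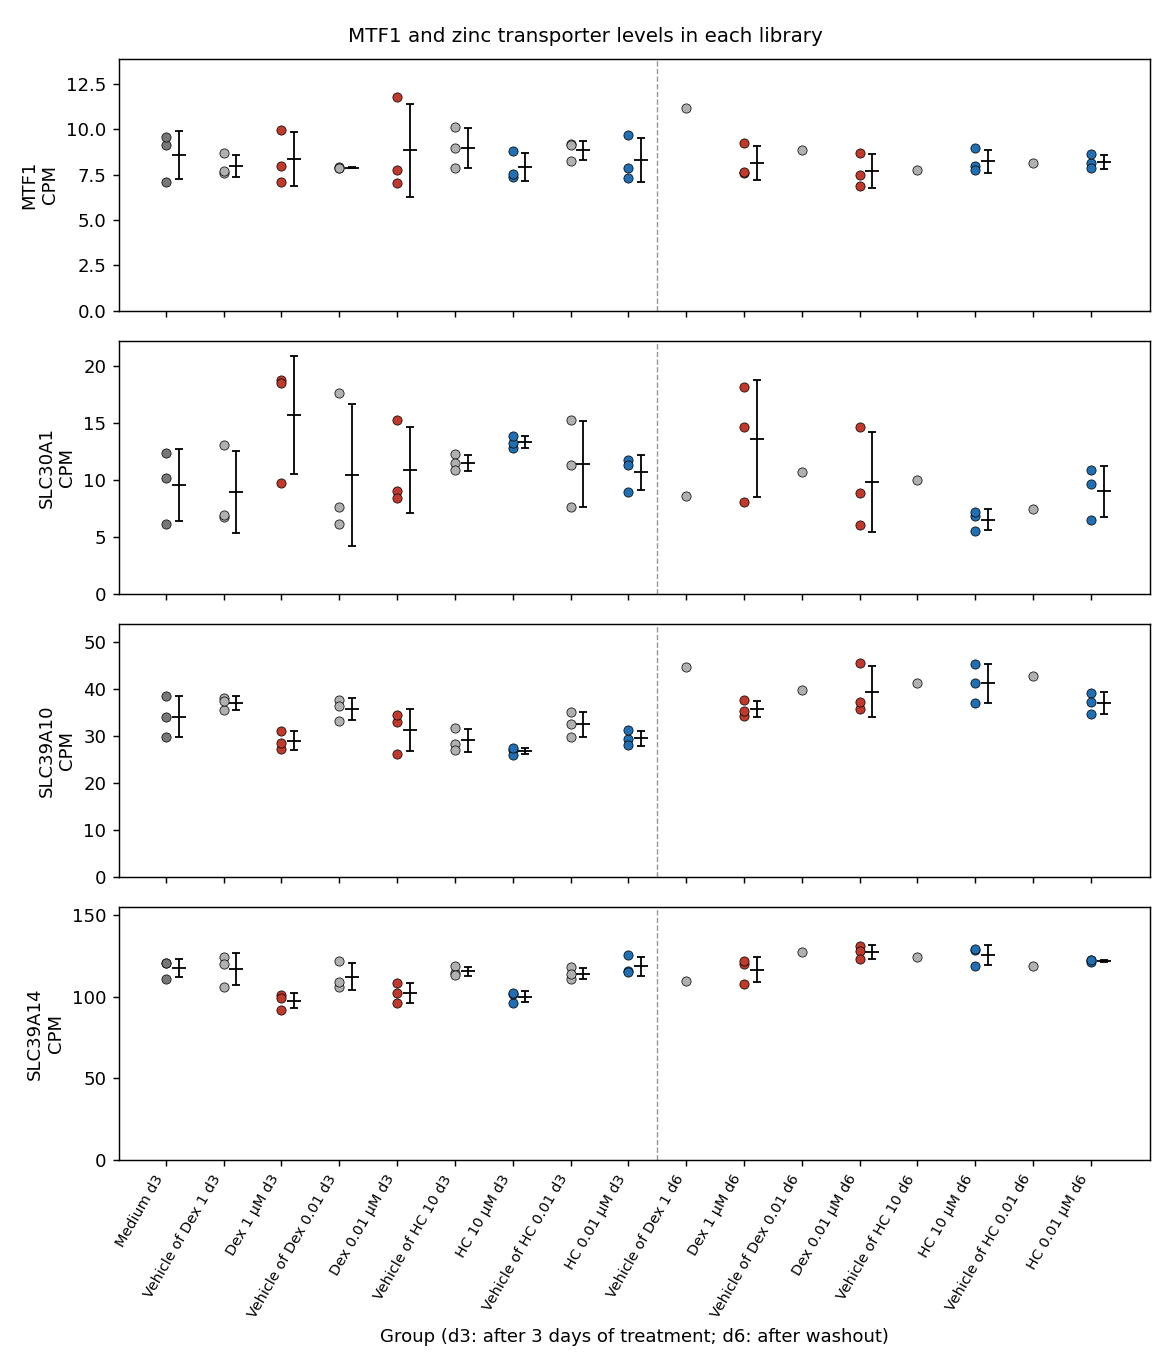
Levels of MTF1, SLC30A1, SLC39A10 and SLC39A14 in CPM (vertical axes, starting at 0) in each library by group, with the same colours and mean ± SD bars as for the metallothioneins. SLC30A1 ranged from 6.10 to 17.6 CPM among vehicle flasks of day 3, and SLC39A14 stayed between 92.1 and 131 CPM in all libraries.

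On day 6, after washout, MT2A and MT1E were still higher than vehicle where 1 µM dexamethasone had been given. The reference on that day was the mean of the 4 vehicle groups, each a single library. Against it the control TSC22D3 was also still higher after 1 µM dexamethasone (log2 fold change 2.47, adjusted p = 5.7e-09). After 0.01 µM dexamethasone, 10 µM hydrocortisone and 0.01 µM hydrocortisone TSC22D3 had 0.43, 0.62 and 0.19 and was not called. Why the control stayed higher was not tested. After 1 µM dexamethasone MT2A and MT1E were the 2 of the 7 genes that were called, against 10.2% of all genes (5.13% higher and 5.03% lower). MT2A had 149, 154 and 161 CPM against 104, 107, 121 and 132 CPM in the vehicles, without overlap, as 20.21% of all genes tested (log2 fold change 0.42, SE 0.06, adjusted p = 7.1e-07). MT1E had 43.2, 52.0 and 55.4 CPM, and the highest of the vehicles had 43.1 CPM (0.43, SE 0.11, adjusted p = 0.0111). The MT1E call was lost without replicate 3 (0.40, adjusted p = 0.0535) or replicate 4 (0.35, adjusted p = 0.0890) of the hormone group. SLC39A10, at 37.5, 34.2 and 35.3 CPM after 1 µM dexamethasone, lay below all 4 vehicles, the lowest of which had 39.6 CPM. Its difference of -0.24 did not pass the test (adjusted p = 0.0903). After 0.01 µM hydrocortisone SLC39A10 also lay below all 4 vehicles, at 34.5, 39.1 and 37.1 CPM. In that comparison 6.42% of all genes tested had no overlap. The SLC39A10 difference there, -0.19, did not pass the test either (adjusted p = 0.503).

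None of the 7 genes was called on day 6 after 0.01 µM dexamethasone, 10 µM hydrocortisone or 0.01 µM hydrocortisone, where 0.0833%, 0.892% and 0.0892% of all genes were. The MT2A differences were 0.02 (95% confidence interval -0.10 to 0.14), 0.12 (-0.0032 to 0.23) and 0.17 (0.05 to 0.29). The MT1E differences were -0.06 (-0.30 to 0.17), -0.06 (-0.30 to 0.17) and 0.14 (-0.09 to 0.38). MT2A itself had 115, 125 and 111 CPM after 0.01 µM dexamethasone, 118, 124 and 133 CPM after 10 µM hydrocortisone and 122, 137 and 131 CPM after 0.01 µM hydrocortisone, all overlapping the vehicles. MT1X was close to its vehicles after all 4 treatments, with 3.30, 4.28 and 4.55 CPM after 1 µM dexamethasone against 2.75 to 5.05 CPM (0.21, 95% confidence interval -0.13 to 0.54). SLC39A14, lower on day 3, had 120.1, 108 and 122 CPM after 1 µM dexamethasone and 119, 129 and 129 CPM after 10 µM hydrocortisone, against 109.6 to 127.5 CPM in the vehicles. Its differences of -0.04 (-0.16 to 0.08) and 0.07 (-0.06 to 0.19) were within the flask spread. SLC30A1 after 1 µM dexamethasone covered 8.07, 14.6 and 18.2 CPM, with a difference of 0.58 (-0.13 to 1.299).

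After 10 µM hydrocortisone SLC30A1 had 6.83, 5.47 and 7.18 CPM, below the lowest vehicle at 7.45 CPM, but its difference of -0.48 had an interval of -1.21 to 0.25. In this comparison 10.99% of all genes tested had no overlap. The hydrocortisone 10 µM group of day 6 was the lowest of the 17 groups for SLC30A1 (6.49 ± 0.91 CPM, SD, n = 3), and the dexamethasone 1 µM group of day 3 was the highest (15.7 ± 5.17). Most neighbours in that order overlapped. The exceptions were the hydrocortisone 10 µM group of day 3 and its vehicle, and the lowest 3 groups. For SLC39A10 the 4 single vehicle libraries of day 6 and the hydrocortisone 10 µM group of that day came first (41.1 ± 4.15 CPM), and dexamethasone 1 µM (28.9 ± 2.01) and hydrocortisone 10 µM of day 3 (26.7 ± 0.70) came last, with overlap between neighbours in the lower part. For SLC39A14 the 3 effective hormone treatments of day 3 were the lowest groups, at 102.2 ± 6.14, 99.9 ± 3.48 and 97.5 ± 4.73 CPM for 0.01 µM dexamethasone, 10 µM hydrocortisone and 1 µM dexamethasone. They overlapped each other and not the group above them, a single vehicle library of day 6 at 109.6 CPM.

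**Figure D3:**
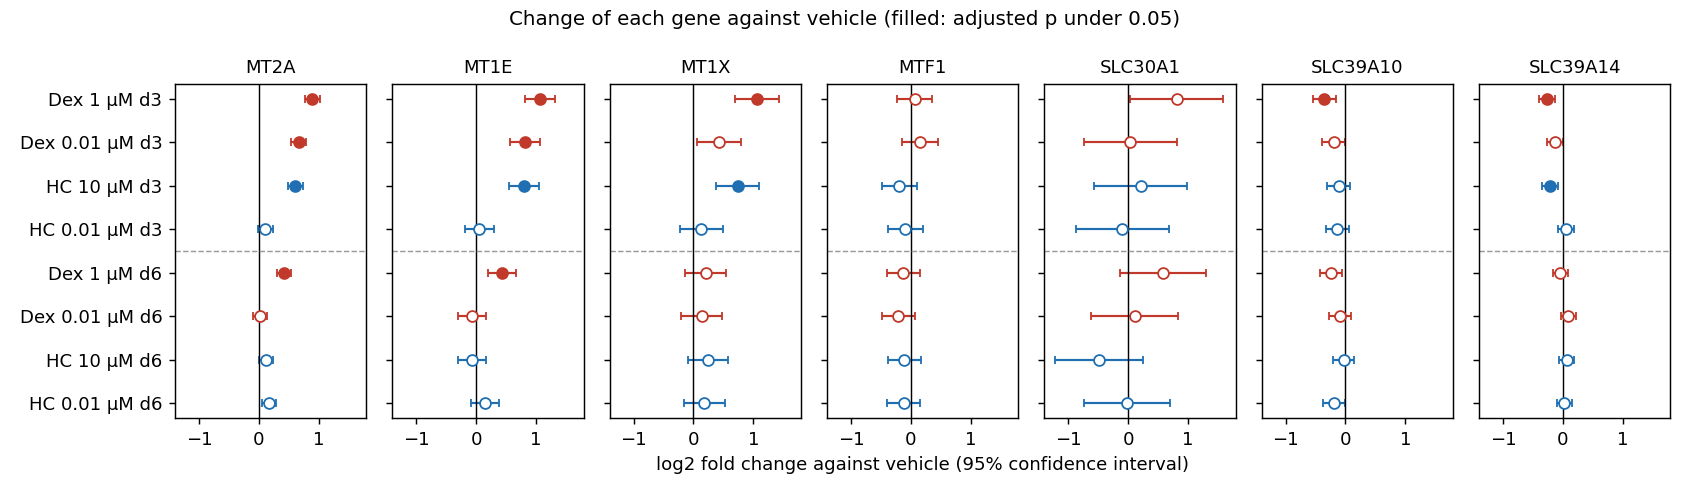
Log2 fold change of each gene against vehicle (horizontal axis) with its 95% confidence interval, for the 4 hormone treatments (Dex, dexamethasone; HC, hydrocortisone) on day 3 (above the dashed line) and day 6 (below it); filled points passed the test at an adjusted p under 0.05. MT2A and MT1E are filled in 3 of 4 treatments on day 3 and for 1 µM dexamethasone on day 6, while MTF1 and SLC30A1 have no filled point.

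Whether the hormone effect itself changed from day 3 to day 6 was tested as a difference of differences, each against the mean of the 4 vehicle groups of its day. With 1 µM dexamethasone 1 of the 7 genes was called (1.68% of all genes), MT2A, whose effect dropped by 0.46 (SE 0.08, adjusted p = 0.000131). For MT1E the change was -0.48 (adjusted p = 0.105), or -0.45 (adjusted p = 0.0471) with the replicate number as a block. With 0.01 µM dexamethasone 3 genes were called (6.55% of all genes). The effect on MT2A dropped by 0.57 (adjusted p = 6.2e-07) and that on MT1E by 0.70 (adjusted p = 0.00207), while that on SLC39A14 rose by 0.26 (adjusted p = 0.0453). With 10 µM hydrocortisone 4 genes were called (6.97% of all genes). MT1E changed most, by -1.04 (SE 0.15, adjusted p = 7.1e-06), followed by MT1X with -0.70 (adjusted p = 0.0421) and MT2A with -0.56 (adjusted p = 1.0e-06), and SLC39A14 rose by 0.27 (adjusted p = 0.0330). For MT1E the day 3 vehicles of hydrocortisone lay above those of dexamethasone. The pooled reference thus makes its day 3 effect larger for 10 µM hydrocortisone and smaller for both dexamethasone doses. Against their own vehicles the MT1E effects of 10 µM hydrocortisone, 1 µM dexamethasone and 0.01 µM dexamethasone were 0.80, 1.07 and 0.82. The day 3 vehicle of 10 µM hydrocortisone also had the highest mean of the 4 vehicle groups for MT1X (5.34 CPM) and MT2A (159.1 CPM). The pooled reference thus makes their day 3 effects of 10 µM hydrocortisone larger too. Against the own vehicle these effects were 0.74 for MT1X and 0.61 for MT2A. With 0.01 µM hydrocortisone no member was called (0.00595% of all genes), and the change of MT2A was 0.04 (95% confidence interval -0.11 to 0.20). The SLC39A14 calls were lost without the libraries over 75% ribosomal RNA (0.20, adjusted p = 0.224, and 0.25, adjusted p = 0.0555), and with 0.01 µM dexamethasone in 17 of all 28 alternatives. The MT1X call was lost in 11 of 28 alternatives, with a highest adjusted p of 0.191 without hydrocortisone 10 µM replicate 2 of day 6 and of 0.175 without the day 6 vehicle library of 0.01 µM hydrocortisone. The SLC39A14 call with 10 µM hydrocortisone was lost in 6 of 28, with a highest adjusted p of 0.121 without the day 6 vehicle library of 1 µM dexamethasone.

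The vehicle flasks changed with the day as well. Between the 4 vehicle groups of day 3 and those of day 6, 3 of the 7 genes were called, 1 higher and 2 lower, against 0.505% of all genes (0.22% higher and 0.285% lower). MT2A went from 140.3 to 171 CPM in the 12 vehicle libraries of day 3 (median 149.9) to 104 to 132 CPM on day 6 and fell by 0.39 (SE 0.05, adjusted p = 4.7e-07). MT1E went from 42.1 to 66.0 CPM (median 53.1) to 34.0, 35.6, 37.2 and 43.1 CPM and fell by 0.48 (adjusted p = 0.00454). SLC39A10 went from 27.0 to 38.1 CPM (median 34.0) to 39.6, 41.3, 42.7 and 44.7 CPM and was 0.33 higher (adjusted p = 0.00587). The calls of MT1E and SLC39A10 were lost without the day 6 vehicle library of 1 µM dexamethasone (adjusted p = 0.0724 and 0.0902), and that of MT1E also without the libraries over 75% ribosomal RNA (adjusted p = 0.0781). Day 6 flasks had been reseeded and had been out of ethanol for 3 days, so time, reseeding and ethanol removal cannot be told apart here. On day 3 itself vehicle and medium differed in none of the 7 genes or of all genes tested (0%; 903 genes at an unadjusted p under 0.05, and DESeq2 called 0), and the MT2A difference was -0.10 (95% confidence interval -0.20 to -0.0045).

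The 2 doses were compared after each had been set against its own vehicle. For hydrocortisone 2 of the 7 genes were called (4.09% of all genes): the 10 µM effect exceeded the 0.01 µM effect by 0.50 for MT2A (SE 0.09, adjusted p = 0.000145) and by 0.75 for MT1E (SE 0.17, adjusted p = 0.00643). For dexamethasone no member was called (0.0476% of all genes). The difference between 1 and 0.01 µM was 0.23 for MT2A (95% confidence interval 0.05 to 0.41, adjusted p = 0.627), 0.24 for MT1E (-0.11 to 0.60) and 0.64 for MT1X (0.12 to 1.15, adjusted p = 0.639). Compared directly, without the vehicles, a comparison added after the data were seen, MT2A was 0.29 higher at 1 than at 0.01 µM dexamethasone (adjusted p = 0.0174), and its libraries did not overlap. In the same direct comparison of the hydrocortisone doses MT1X was 0.72 higher (adjusted p = 0.00352) and SLC39A14 was lower, at -0.25 (adjusted p = 0.00572), where the vehicle-corrected values were 0.60 (adjusted p = 0.211) and -0.27 (adjusted p = 0.103).

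At the matched dose of 0.01 µM the 2 hormones differed on day 3 in 2 of the 7 genes (4.98% of all genes). The dexamethasone effect exceeded the hydrocortisone effect by 0.55 for MT2A (SE 0.09, adjusted p = 2.9e-05) and by 0.77 for MT1E (SE 0.17, adjusted p = 0.00480). The MT1E value rests partly on the vehicles. The 6 vehicle libraries of the dexamethasone treatments had 42.1 to 52.2 CPM and the 6 of the hydrocortisone treatments 53.9 to 66.0 CPM. Compared directly, dexamethasone (77.9 to 82.4 CPM) and hydrocortisone (59.2 to 64.0 CPM) at 0.01 µM differed by 0.40 for MT1E (adjusted p = 0.0246) and by 0.47 for MT2A (adjusted p = 3.3e-07). SLC39A14 was also called in this direct comparison, at -0.22 (adjusted p = 0.0199), where the vehicle-corrected value was -0.19 (adjusted p = 0.282). Without the libraries over 75% ribosomal RNA the vehicle-corrected MT1E difference was 0.69 with an adjusted p of 0.0555. On day 6 none of the 7 genes differed between the hormones at this dose (0.773% of all genes), with differences of -0.15 for MT2A (95% confidence interval -0.28 to -0.02, adjusted p = 0.320) and -0.21 for MT1E (-0.45 to 0.04).

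The families of zinc transporters were read from lists that include the members. Among 7 tested exporters of the SLC30 family, SLC30A1 included, 1 was higher with 1 µM dexamethasone, 0 with 0.01 µM and 2 with 10 µM hydrocortisone, where 10.3%, 6.15% and 5.58% of all genes were higher, and none was lower. SLC30A9, a mitochondrial zinc exporter, rose by 0.30 (adjusted p = 0.00640) with 1 µM dexamethasone and by 0.41 (adjusted p = 0.000355) with 10 µM hydrocortisone, and SLC30A4, an exporter of intracellular vesicles, rose by 0.61 (adjusted p = 0.00705) with the latter. Among 11 tested importers of the SLC39 family 2 were higher and 3 lower with 1 µM dexamethasone, 3 higher and 0 lower with 0.01 µM dexamethasone, and 0 higher and 1 lower with 10 µM hydrocortisone. Of all genes 10.3% were higher and 12.3% lower, 6.15% higher and 7.84% lower, and 5.58% higher and 7.5% lower. SLC39A10 and SLC39A14 are 2 of the 3 lower importers with 1 µM dexamethasone, and SLC39A14 is the 1 with 10 µM hydrocortisone. SLC39A6, a plasma membrane importer that forms complexes with SLC39A10, fell by 0.33 (adjusted p = 0.00151) with 1 µM dexamethasone and by 0.34 (adjusted p = 0.00164) after its washout. With the same treatment SLC39A13 rose by 0.43 (adjusted p = 0.000153) and SLC39A9 by 0.30 (adjusted p = 0.00111). At 0.01 µM dexamethasone SLC39A9, SLC39A13 and SLC39A7 were higher by 0.24, 0.26 and 0.22 (adjusted p of 0.0158, 0.0373 and 0.0382), calls that were lost in 5, 9 and 9 of 15 alternatives. After the washout of 1 µM dexamethasone SLC39A13 was 0.28 higher (adjusted p = 0.0156). The median log2 fold changes of exporters and importers were 0.11 and 0.16 with 1 µM dexamethasone, 0.11 and 0.22 with 0.01 µM, and 0.21 and 0.16 with 10 µM hydrocortisone.

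Metallothioneins also bind copper, and 12 copper-handling genes were read for that reason. With 1 µM dexamethasone 0 were higher and 2 lower, with 0.01 µM 2 higher and 1 lower, and with 10 µM hydrocortisone 0 higher and 1 lower, with list medians of -0.04, 0.06 and 0.04. In the same comparisons 22.6%, 14% and 13.1% of all genes were called in either direction. STEAP3, a metalloreductase that reduces iron and copper, fell in all 3, by 0.85 (adjusted p = 2.4e-05), 0.72 (adjusted p = 0.000527) and 0.86 (adjusted p = 3.6e-05), and after the washout of 1 µM dexamethasone it fell by 0.55 against vehicle (adjusted p = 0.00652). The copper chaperone ATOX1 fell by 0.42 with 1 µM dexamethasone (adjusted p = 0.00657). At 0.01 µM dexamethasone SLC31A2 was 0.66 higher (adjusted p = 0.0236) and the copper pump ATP7A 0.37 higher (adjusted p = 0.0489). These last calls are weak: they were lost in 9 and 10 of 15 alternatives.

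Of 11 genes of the metal and oxidative stress response, 2 were higher and 2 lower with 1 µM dexamethasone, 1 higher and 2 lower with 0.01 µM, and 0 higher and 2 lower with 10 µM hydrocortisone. In the same comparisons 22.6%, 14% and 13.1% of all genes were called in either direction. The list medians were 0.03, 0.03 and 0.00. TXNRD1, the cytosolic thioredoxin reductase, fell by 0.76 (adjusted p = 2.7e-11), 0.59 (adjusted p = 3.6e-08) and 0.58 (adjusted p = 5.8e-08), and FTL, the ferritin light chain, fell by 0.72 (adjusted p = 5.0e-10), 0.61 (adjusted p = 5.7e-08) and 0.55 (adjusted p = 6.4e-07). FTH1, the ferritin heavy chain, went the other way, 0.64 higher (adjusted p = 0.00143) with 1 µM and 0.65 higher (adjusted p = 0.00203) with 0.01 µM dexamethasone; it has many processed copies in the genome, so its counts are less certain. HMOX1, heme oxygenase, was 0.62 higher with 1 µM dexamethasone (adjusted p = 0.0116). After washout of 1 µM dexamethasone HMOX1 was 0.88 higher (adjusted p = 0.000258), TXNRD1 fell by 0.52 (adjusted p = 3.4e-07) and FTL by 0.30 (adjusted p = 0.00354). After washout of 10 µM hydrocortisone the cystine transporter SLC7A11 fell by 0.97 (adjusted p = 0.00837), TXNRD1 fell by 0.30 (adjusted p = 0.0137), and the near-identical heat shock genes HSPA1A and HSPA1B were 0.46 and 0.53 higher (adjusted p = 0.0438 and 0.0131, lost in 7 and 4 of 13 alternatives).

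Within groups the 3 metallothioneins deviated together from flask to flask. Across the 39 libraries of the 13 groups with 3 flasks, 21 pairs of genes were compared by their log2 deviations from the group mean, with permutation within groups. MT2A and MT1X had a Pearson's r of 0.79 and a Spearman's rho of 0.82 (p = 1e-05 each, the smallest that 100000 permutations can give, and 0.00021 adjusted over the 21 pairs), and r was 0.78 without the 2 farthest libraries. MT2A and MT1E had r = 0.69 and rho = 0.72 (permutation p = 0.00023 and 8e-05, adjusted 0.00168 and 0.00084; r = 0.77 without the 2 farthest). MT1E and MT1X had r = 0.70 and rho = 0.71 (permutation p = 0.00024 and 0.00019, adjusted 0.00168 and 0.00133; r = 0.75 without them). MTF1 and SLC30A1 had r = 0.52 and rho = 0.53 (permutation p = 0.00186 and 0.00269, adjusted 0.00976 and 0.0141; r = 0.47 without them). MTF1 and SLC39A10 had r = -0.58 and rho = -0.46 (permutation p = 0.00907 and 0.0217, adjusted 0.0381 and 0.0761; r = -0.50 without them), so this relation passed by r alone. With the ribosomal share of the library MTF1 had r = 0.43 and SLC39A10 r = -0.37 (adjusted permutation p = 0.229 for each). No other pair passed by either measure. The nearest was MT1E and MTF1, with r = 0.36 and rho = 0.415 (adjusted permutation p = 0.0685 for each). SLC30A1 and SLC39A10 had r = -0.44 (adjusted permutation p = 0.0820). MT2A and SLC30A1 had r = 0.07 (adjusted permutation p = 0.745).

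**Figure D4:**
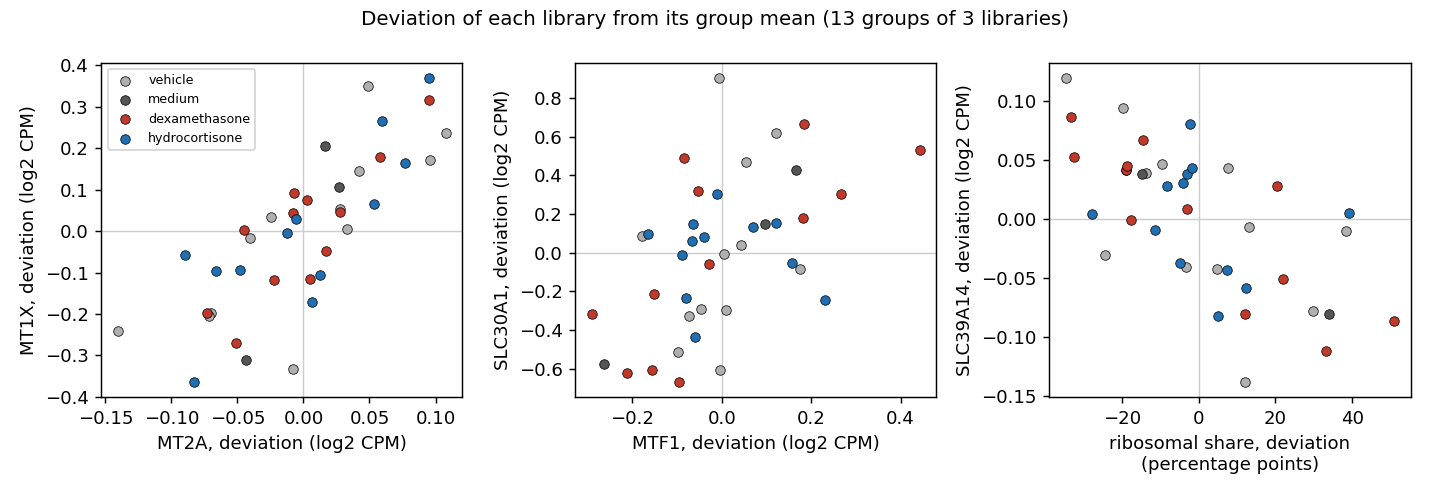
Deviation of each of 39 libraries from the mean of its group, in log2 CPM, for MT1X against MT2A, for SLC30A1 against MTF1, and for SLC39A14 against the ribosomal share of the library (deviation in percentage points); colours give the kind of group. The points rise together in the first panel (r = 0.79) and more loosely in the second (r = 0.52), and fall in the third (r = -0.66).

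Over the 17 group means of log2 CPM the genes most like each member were ranked among the 11670 genes whose mean log2 CPM reached 1, the other members left aside; these correlations describe groups that share the hormone contrasts, and no p is given. The nearest to MT2A were ID3 (r = 0.950), CPE (0.950) and PEDS1 (0.942). The nearest to MT1E were HMGCS1 (0.957), PRXL2A (0.942) and FADS2 (0.936), and the nearest to MT1X were FN3KRP (0.913), SESN1 (0.893) and CPE (0.892). Near SLC39A14 lay GEMIN4 (0.955) and MARCHF3 (0.937), and near SLC39A10 lay COPB1 (0.891), TRAPPC4 (0.886) and MAMDC2 (0.884). MTF1 and SLC30A1 had weaker neighbours: ZSCAN30 (0.887), INTS6P1 (0.861) and PER2 (0.825) for the first, CSNK1G1 (0.849), MAP2K5 (0.842) and PDPR (0.840) for the second. Among the members themselves MT2A and MT1E had r = 0.973, MT1E and SLC39A10 -0.911, and MT2A and MTF1 -0.17.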

How the data were processed

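RNA of 43 HMC3 flasks was sequenced as stranded total RNA with 76-base paired reads, per the labels' protocols. The authors deposited raw counts per gene; STAR, featureCounts from Subread, FastQC and GRCh38 are named in the submitters' processing notes, while no version or strand setting is given in the sources used here. The counts were tested across all genes with edgeR 4.0.16 (R 4.3.3; TMM scaling, filterByExpr with a minimum count of 10 and total of 15, 1 quasi-likelihood fit with 17 group terms and 26 residual degrees of freedom, two-sided, Benjamini-Hochberg over 16816 genes, threshold 0.05) and, as an alternative, with DESeq2 1.42.0. Ribosomal RNA genes were kept in the library sizes, and their share, 9.9% to 94.86%, sets the depth: member counts ran from 11 (MT1X) to 7755 (MT2A) per library. The scripts were tested on simulated data.

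The members and lists were chosen with earlier results of these data known. Named were the 7 members, up to 4 called genes per pathway list and hormone comparison, TSC22D3, and the 3 genes most like each member, apart from items that are not reported here. Alternatives were RLE factors, library sizes without ribosomal genes, no filter, other references, 2 groups only, each library left out, and the replicate number as a block. Same-numbered libraries correlated at -0.35 to 0.18 between hormone and vehicle (9 pairs) and at -0.26 to 0.32 between days (12 pairs), and the labels do not say that a number marks a flask; only for the 2 hydrocortisone doses did all 3 day pairs exceed 0.1. Replicates differed by more than counting noise (ratios of 1.51 to 3.37), so none was counted as a duplicate. P-values measure the spread between flasks of 1 line.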

Additional observations from a re-analysis of the deposited data

Results flagged for a closer look

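The following differences between hormone effects passed the test of the difference itself (edgeR, adjusted over all genes), and the vehicle-corrected ones at day 3 share no library between their 2 effects. Between doses of hydrocortisone on day 3, MT2A differed by 0.50 (adjusted p = 0.000145) and MT1E by 0.75 (adjusted p = 0.00643). Between dexamethasone and hydrocortisone at 0.01 µM, MT2A differed by 0.55 (adjusted p = 2.9e-05) and MT1E by 0.77 (adjusted p = 0.00480; 0.0555 without the libraries over 75% ribosomal RNA). From day 3 to day 6 the MT2A effect changed by -0.46 with 1 µM dexamethasone, by -0.57 with 0.01 µM dexamethasone and by -0.56 with 10 µM hydrocortisone (adjusted p of 0.000131, 6.2e-07 and 1.0e-06). The MT1E effect changed by -0.70 with 0.01 µM dexamethasone (adjusted p = 0.00207) and by -1.04 with 10 µM hydrocortisone (adjusted p = 7.1e-06), and the MT1X effect by -0.70 with the latter (adjusted p = 0.0421, lost in 11 of 28 alternatives). The SLC39A14 effect changed by 0.26 with 0.01 µM dexamethasone (adjusted p = 0.0453, lost in 17 of 28) and by 0.27 with 10 µM hydrocortisone (adjusted p = 0.0330, lost in 6 of 28). The 4 hormone treatments share the vehicle references of each day in these day comparisons. For MT1E the day 3 vehicles of hydrocortisone lay above those of dexamethasone. Its day change is therefore larger for 10 µM hydrocortisone, and smaller for 0.01 µM dexamethasone, than it would be with each treatment's own vehicle on day 3. For MT1X and MT2A the day 3 vehicle of 10 µM hydrocortisone had the highest mean of the 4 vehicle groups. Their day change with 10 µM hydrocortisone is therefore larger too.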

How the results depend on the processing

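Of 126 results of single members (7 genes in 18 comparisons), recomputed 2351 times, 48 recomputed values lost a call and 11 gained one; no called value changed sign, and 19 of 28 calls held in every alternative run. The number of members called moved by over 1.5 times in 10 of 336 recomputations. Compared directly with no vehicle correction, an alternative added after seeing the data, it was 1 in place of 0 for the dexamethasone doses and 4 in place of 2 for the hydrocortisone doses. Without the libraries over 75% ribosomal RNA it was 1 in place of 2 between the hormones at 0.01 µM on day 3, and with the replicate block it was 2 in place of 1 for the day change of 1 µM dexamethasone. That block changed no other member call. Leaving out 1 library gave 1 to 2 members for 1 µM dexamethasone on day 6, 1 to 3 between the vehicles of the 2 days and 2 to 4 for the day change of 10 µM hydrocortisone. Counts of all genes moved more. With 0.01 µM dexamethasone on day 3 they were 2353, but 713 with only the 2 groups fitted, 1522 without the libraries over 75% and 3633 against all vehicles, and with 10 µM hydrocortisone 2199 became 4066 against all vehicles. Of the small day 6 and difference counts, 150 became 251 without ribosomal genes in the library sizes and 238 by DESeq2 (10 µM hydrocortisone), 15 became 9, 8 with the block and 25 by DESeq2 (0.01 µM hydrocortisone), and 85 became 37 without the libraries over 75% (vehicles by day). Compared directly, 8 became 65 (dexamethasone doses), 688 became 2493 (hydrocortisone doses) and 838 became 2409 (hormones at 0.01 µM). For the dexamethasone doses 8 became 4 without ribosomal genes in the library sizes and 15 by DESeq2, and with 0.01 µM hydrocortisone on day 3 the count of 0 became 3 against all vehicles and 1 by DESeq2. Leaving out 1 library gave 1396 to 2310 genes for 10 µM hydrocortisone on day 3, 0 to 3 between vehicle and medium, 4 to 18 for the dexamethasone doses and 17 to 114 between the vehicles of the 2 days. On day 6 it gave 1064 to 1725 (1 µM dexamethasone), 0 to 23 (0.01 µM dexamethasone, 14 with all libraries), 34 to 174 (10 µM hydrocortisone), 1 to 85 (0.01 µM hydrocortisone) and 31 to 179 (between the hormones, 130 with all). For the day change it gave 159 to 311 (1 µM dexamethasone), 709 to 1277 (10 µM hydrocortisone) and 0 to 4 (0.01 µM hydrocortisone). The other scalings moved the median of all genes by under 0.1. The cause of these moves was not tested. The lowest counts in a library were 11 for MT1X, 24 for MTF1 and 31 for SLC30A1, which limits the precision of these 3 genes.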
